A study of Mus musculus with 6 samples.

Results

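The small MAF genes Maff, Mafg and Mafk, the transcription factor gene Nfe2l2 and 6 antioxidant genes, Hmox1, Gclm, Srxn1, Txnrd1, Nqo1 and Slc7a11, were followed in cultured mouse cortical neurons. The 10 genes were taken by name from the 55385 gene identifiers counted, and all 10 were detected and passed the filter on low counts. Maff was chosen by its counts in these libraries, labelled activated over labelled control, in an earlier look, so its values are given as a description with no test. The other 9 belong to the same family or pathway. The cells were primary cortical neurons of E18 mouse embryos, grown for 16 days in vitro, and every culture had received 2.5 uM AraC, which blocks DNA synthesis in dividing cells, for 24 hours from day 2. The 3 libraries labelled control came from untreated cultures. The 3 labelled activated came from cultures given KCl, which depolarises neurons, for 5 minutes, washed, and left to recover for 30 minutes. The KCl concentration stands as 50 mM in the protocol and as 50 uM in the sample table. No strain or genotype is given, and the labels do not tell whether the replicates are separate cultures. The p-values may therefore reflect technical spread alone.

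NRF2, the protein of Nfe2l2, is a basic leucine zipper factor of the CNC family that switches on genes for glutathione and thioredoxin chemistry, quinone reduction and heme breakdown. It binds DNA at antioxidant response elements only as a dimer with a small MAF protein. Small MAF proteins lack a transactivation domain, so their dimers with each other or with BACH1 repress the same sites. In resting cells KEAP1 holds NRF2 in a CUL3 ubiquitin ligase that marks it for degradation, so that NRF2 activity is set largely at the level of protein. In brain this system is known to be stronger in astrocytes than in neurons.

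Between 17753000 and 32920000 reads per library fell on genes. The activity-induced genes Arc, Npas4, Egr1 and Fos were all lower in every library labelled activated than in any labelled control (log2 fold changes of −1.84, −1.84, −0.94 and −1.16). That direction goes against the label, so groups are called by their labels, and each direction below rests on those labels. Neuron markers were abundant, at no less than 2201 CPM (counts scaled to library size) summed over 12 excitatory and 1081 CPM over 12 inhibitory markers. Mitochondrial reads made up 14.7% to 17.1% of gene reads in labelled control and 21.3% to 25.0% in labelled activated libraries.

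Of the 9 genes other than Maff, 5 were higher in the libraries labelled activated: Nfe2l2 itself and the targets Slc7a11, Nqo1, Hmox1 and Txnrd1. Mafg, Mafk, Srxn1 and Gclm did not pass. None of the 9 was lower, also at an unadjusted p below 0.05 (0 of 9) and by DESeq2 (0 of 9). Over all 18132 genes tested, 16.2% were higher and 20.6% lower, 36.8% in all (edgeR quasi-likelihood test, adjusted p below 0.05). The median log2 fold change of the 9 was 0.24, beside 0.04 for all genes tested. Groups did not overlap for 5 of the 9 with labelled activated above (22.6% of all genes) and for 1, Gclm, with it below (26.4% of all genes, 49% in either direction).

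**Figure D1:**
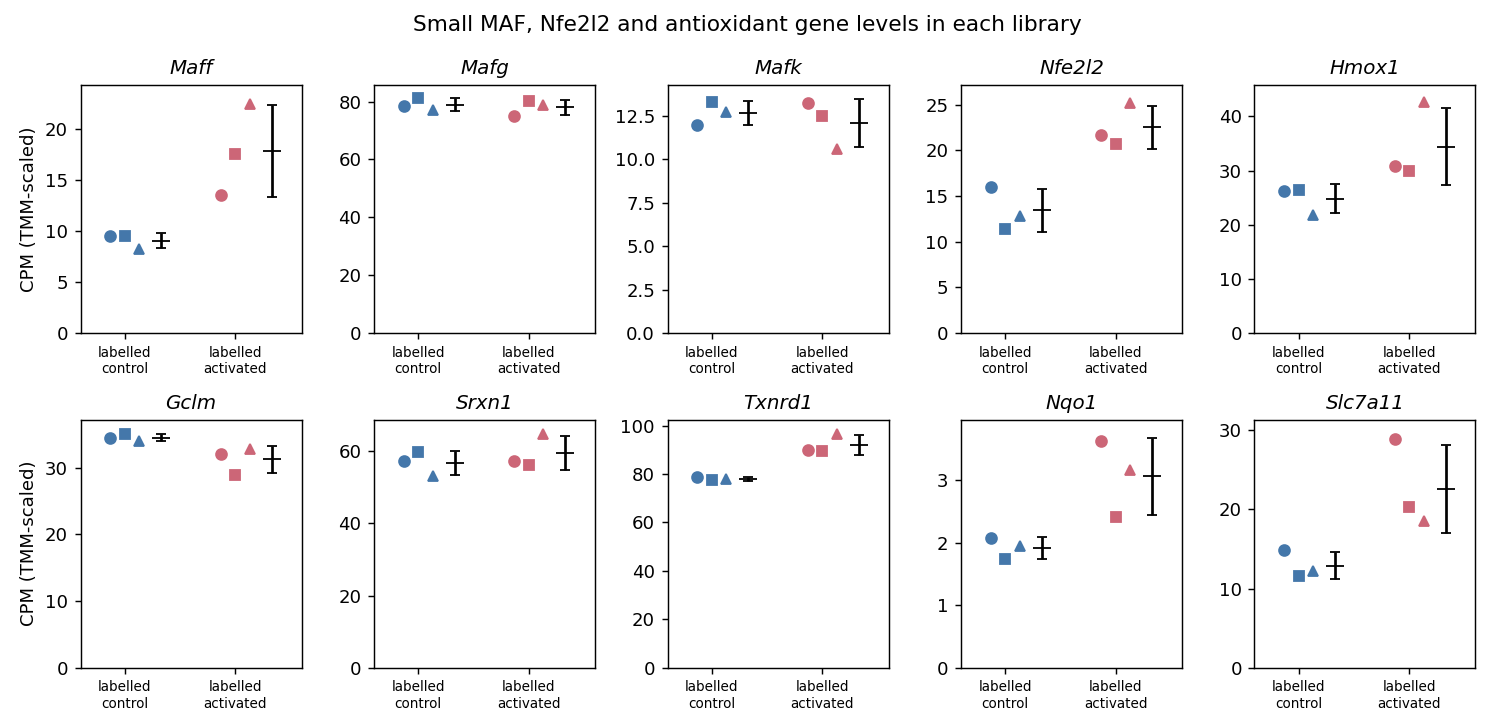
Each panel shows 1 gene, with CPM scaled by the trimmed mean of M values on a linear axis from 0, for the 3 libraries labelled control (blue) and the 3 labelled activated (red). Circles, squares and triangles are replicates 1, 2 and 3, and bars give the mean and SD. The groups are apart for Maff, Nfe2l2, Hmox1, Txnrd1, Nqo1 and Slc7a11 with labelled activated above, and for Gclm with it below.

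Maff (ENSMUSG00000042622.14, chromosome 15, 79346621 to 79359076, plus strand), the small MAF known as an early response gene, stood at 9.47, 9.48 and 8.25 CPM in labelled control replicates 1, 2 and 3. In labelled activated replicates 1, 2 and 3 it stood at 13.5, 17.6 and 22.5 CPM. All 3 labelled activated values lay above all control values, and they were spread more widely than the controls. The log2 fold change was 1.0, the place 327 from the top among 18132 genes. Maff was picked for its rise, so these values and the separation of its groups describe and do not test. Leaving out activated replicate 3 gave 0.80, and leaving out activated replicate 1 gave 1.15.

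Its relatives did not share that pattern. Mafg (ENSMUSG00000051510.13, chromosome 11, 120625117 to 120633600, minus strand), a ubiquitous partner of NRF2, stood at 78.3, 81.3 and 77.0 CPM in labelled control and 75.0, 80.2 and 78.6 CPM in labelled activated replicates. The values interleave, and the log2 fold change of −0.02 had a 95% interval from −0.14 to 0.11 (edgeR adjusted p = 0.860). Mafk (ENSMUSG00000018143.10, chromosome 5, 139791513 to 139802653, plus strand) stood at 11.9, 13.3 and 12.7 CPM in labelled control and 13.2, 12.5 and 10.6 CPM in labelled activated replicates. Here too the groups overlap, with a log2 fold change of −0.07 and an interval from −0.30 to 0.15 (edgeR adjusted p = 0.597). Both signs turned when libraries were scaled to neuron markers, to 0.11 and 0.06 by their summed counts and to 0.31 and 0.26 by their geometric mean. Under the geometric mean scaling Mafg was called higher (edgeR adjusted p = 0.00143), and Mafk was not (edgeR adjusted p = 0.0753). Reads over shared exon stretches are uncertain for Mafg, whose exons overlap Sirt7 on the same strand, and Gclm, whose exons overlap Gm6061. The neuron marker scalings moved the median of all genes to 0.17 and 0.37, so Mafg and Mafk stayed below that median.

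Compared per kb of exon, Mafg was the most abundant small MAF in every library. Maff held 17.7%, 17.0% and 15.8% of the summed small MAF level in labelled control replicates 1, 2 and 3, and 23.7%, 27.9% and 34.1% in labelled activated ones. Every labelled activated share of Maff was above every control share, which again describes a gene picked for its rise. Mafg went from 67.6% ± 0.420 to 58.3% ± 2.87 and Mafk from 15.6% ± 0.701 to 13.1% ± 2.38 (SD, n = 3). The summed level itself was 20.8 ± 0.711 CPM per kb in labelled control and 23.9 ± 1.74 CPM per kb in labelled activated libraries. Shares are on a scale that adds to a fixed total, so a larger share of Maff lowers the other 2.

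**Figure D2:**
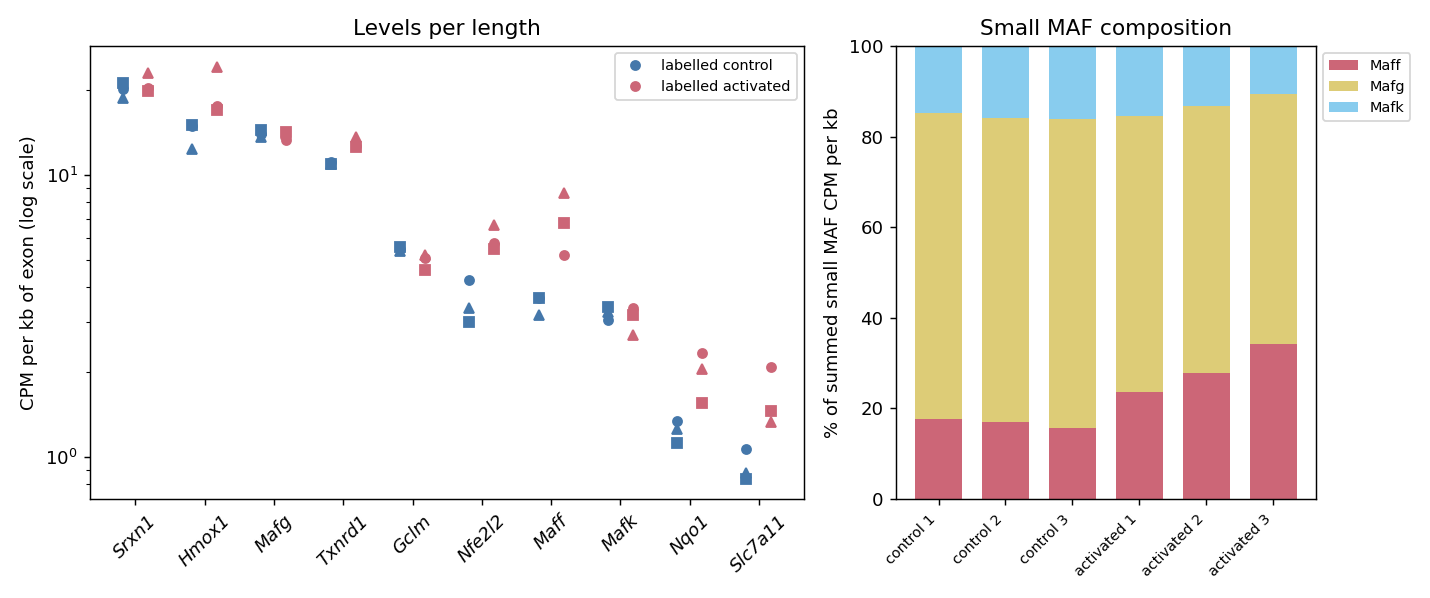
Left, level of each gene in CPM per kb of exon on a log axis, for each library (blue, labelled control; red, labelled activated; circles, squares and triangles are replicates 1, 2 and 3), ordered by the labelled control mean. Right, stacked bars give the percent of the summed small MAF level held by Maff, Mafg and Mafk in each library. Maff makes up 15.8% to 17.7% in labelled control and 23.7% to 34.1% in labelled activated libraries.

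The promoter windows of the small MAFs differ in the letters they hold. RefSeq windows from 250 bases before to 50 bases after each start (GRCm38.p6, the build of the mm10 alignment) were found for 9 of the 10 genes, with 13 windows in all, since Maff and Txnrd1 have 3 each. With 4 motifs in all, windows were searched on both strands: TGACNNNGC, the core of the antioxidant response element, TGANTCA, the AP-1 site, TGCTGA, the core of a MAF site, and TGACGTCA, the cAMP response element, the last added after the windows had been read. The AP-1 site can overlap the antioxidant core where the bases GC follow it. The following 3 windows are shown because they belong to Maff and to Mafg, the most abundant small MAF, and capitals mark the matches.
Maff window 1, chr15:79346371-79346670, plus strand: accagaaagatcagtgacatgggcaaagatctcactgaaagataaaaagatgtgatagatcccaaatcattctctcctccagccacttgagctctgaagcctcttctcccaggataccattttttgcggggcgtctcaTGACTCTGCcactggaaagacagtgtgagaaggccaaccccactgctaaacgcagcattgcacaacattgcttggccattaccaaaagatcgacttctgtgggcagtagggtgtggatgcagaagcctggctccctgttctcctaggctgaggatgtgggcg
Maff window 2, chr15:79347270-79347569, plus strand: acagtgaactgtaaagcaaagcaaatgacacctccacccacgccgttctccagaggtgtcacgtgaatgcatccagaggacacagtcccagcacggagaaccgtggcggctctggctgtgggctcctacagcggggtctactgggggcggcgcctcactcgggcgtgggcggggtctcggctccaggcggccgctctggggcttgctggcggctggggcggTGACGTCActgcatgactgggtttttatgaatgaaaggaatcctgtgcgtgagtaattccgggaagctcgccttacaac
Mafg, chr11:120633498-120633797, minus strand: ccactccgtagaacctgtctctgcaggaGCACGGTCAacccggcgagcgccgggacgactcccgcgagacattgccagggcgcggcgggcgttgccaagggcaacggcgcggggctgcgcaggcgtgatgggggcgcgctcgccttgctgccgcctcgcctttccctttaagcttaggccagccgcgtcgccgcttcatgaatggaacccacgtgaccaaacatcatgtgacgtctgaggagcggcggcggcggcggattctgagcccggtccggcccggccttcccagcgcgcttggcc
Maff window 1 holds the antioxidant core at −112 from the start. Window 2 holds the cAMP response element at −29, which 1.79% of all 32851 windows hold and no other window of these genes does. The Mafg window holds the antioxidant core at −222 on the strand opposite to the printed one, so its capitals show the reverse complement. Window 3 of Maff holds none of the 4 motifs. A match describes letters only and was not tested as a binding site.

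Nfe2l2 (ENSMUSG00000015839.6, chromosome 2, 75675513 to 75704641, minus strand) rose. It stood at 16.0, 11.4 and 12.9 CPM in labelled control replicates 1, 2 and 3 and at 21.7, 20.7 and 25.2 CPM in labelled activated ones. The groups are clearly apart, and the log2 fold change of 0.75 ± 0.12 (SE) passed edgeR's test (adjusted p = 0.000314). It lay between 0.65 and 0.90 with each library left out in turn and passed each time. Markers of other cell types moved with it: 10 of 11 astrocyte markers tested (12 fixed) were higher, with a summed level of 1108 to 1142 CPM in labelled control and 1494 to 1844 CPM in labelled activated libraries and a median log2 fold change of 0.69. Of the endothelial, mural and fibroblast markers, 7 of 9 tested were higher (200.3 to 231 against 322 to 382 CPM), and of the oligodendrocyte lineage markers 4 of 7 (59.7 to 65.0 against 78.4 to 90.1 CPM). Of the microglia markers, 7 of 10 were higher, but their summed levels overlap (52.7 to 72.5 against 64.5 to 122 CPM). Of the neuron markers, 7 of 12 excitatory and 7 of 12 inhibitory ones were lower, with median log2 fold changes of −0.32 and −0.42. These marker counts stand beside 16.2% higher and 20.6% lower over all genes tested. The summed inhibitory level was lower in labelled activated libraries (1081 to 1211 against 1595 to 1651 CPM), but the summed excitatory level was higher (2328 to 2514 against 2201 to 2310 CPM). That excitatory sum leans on Camk2a, the most abundant of the 12 and the only 1 called higher. Camk2a went from a mean of 1000 CPM in labelled control to 1282 CPM in labelled activated libraries. No marker on these lists was at 0 in all 6 libraries. Their part in the changes of Nfe2l2 and of the target genes below was not tested. In bulk RNA, fewer cells of a type and less RNA per cell cannot be told apart.

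**Figure D3:**
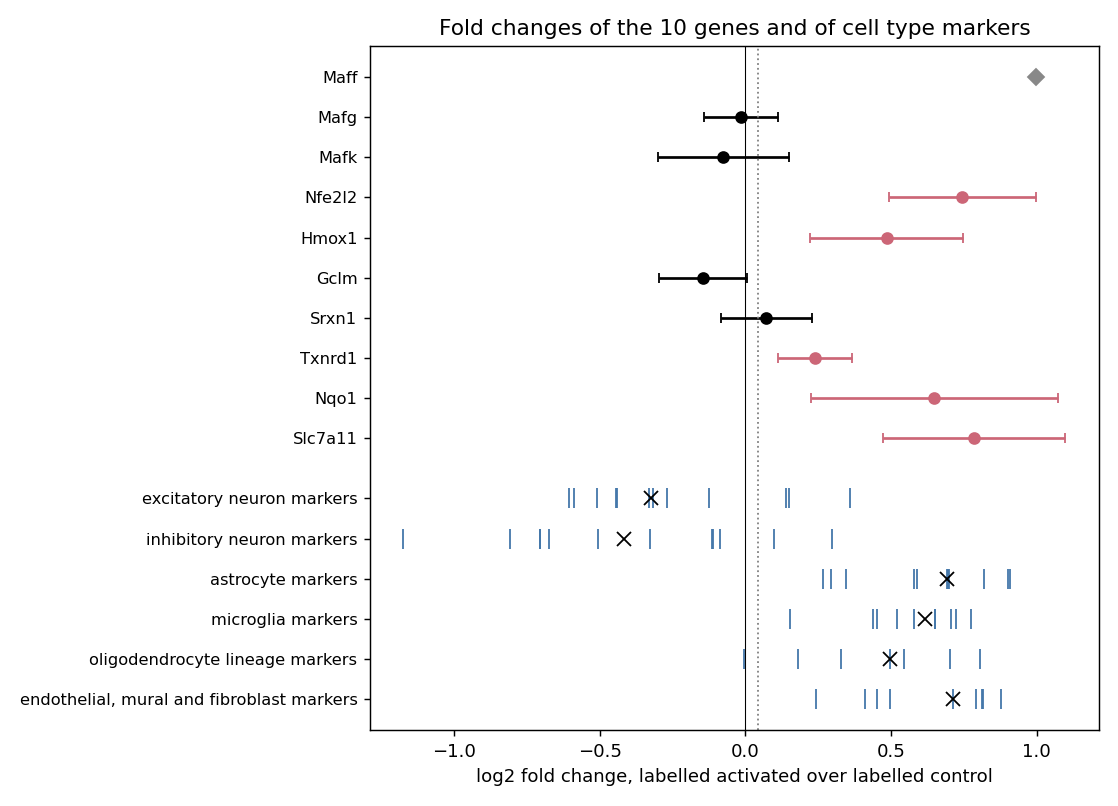
Points give the log2 fold change of each gene, labelled activated over labelled control, with its 95% interval (red, higher at adjusted p below 0.05; black, not called; grey diamond, Maff, with no interval or test). Below, blue ticks are single tested markers of 6 cell types and crosses their medians. The dotted line is the median of all tested genes, 0.04. The genes called higher have values of 0.24 to 0.79, and the astrocyte median is 0.69.

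Of the genes of glutathione supply, Slc7a11 (ENSMUSG00000027737.10, chromosome 3, 49892526 to 50443614, minus strand) rose. It encodes xCT, the cystine and glutamate exchanger that brings in cystine for glutathione, and is also a target of ATF4. It stood at 14.8, 11.6 and 12.2 CPM in labelled control and at 28.9, 20.3 and 18.5 CPM in labelled activated replicates 1, 2 and 3. Replicate 1 was the highest of its group on either side, and the groups do not overlap. The log2 fold change of 0.79 ± 0.15 (SE) passed edgeR's test (adjusted p = 0.000986), and it was 0.58 without activated replicate 1. The call depended on strand. Reads on the opposite strand made up 41.8% of the reads over its exons, where the other 9 genes had 0.109% to 4.30%. These opposite-strand reads stood at 13.7, 19.2 and 14.8 CPM in labelled control and 6.96, 8.41 and 8.88 CPM in labelled activated replicates, lower in all 3. In unstranded counts, which add both strands, the log2 fold change was 0.05 with no call (edgeR adjusted p = 0.731). GENCODE M21 has no exon of another gene on either strand over the exons of Slc7a11, and the source of the opposite-strand reads was not tested.

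**Figure D4:**
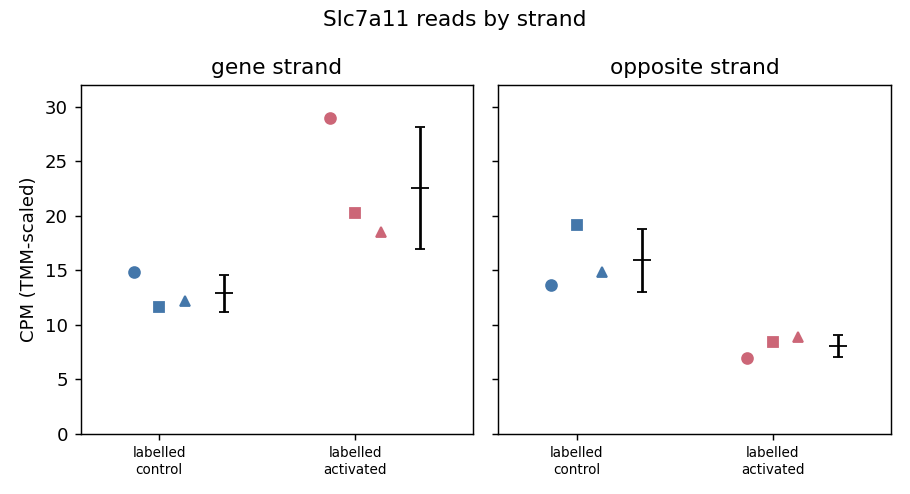
CPM of reads over Slc7a11 exons on the gene's own strand (left) and on the opposite strand (right), on a shared linear axis from 0; circles, squares and triangles are replicates 1, 2 and 3, and bars give the mean and SD of 3 libraries. Own-strand means go from 12.9 (labelled control) to 22.6 CPM (labelled activated), and opposite-strand means from 15.9 to 8.08 CPM.

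Gclm (ENSMUSG00000028124.15, chromosome 3, 122245557 to 122270732, plus strand), the modifier subunit of glutamate-cysteine ligase, did not move with it. Its values were 34.4, 35.1 and 34.0 CPM in labelled control and 32.1, 28.8 and 32.7 CPM in labelled activated replicates. All 3 labelled activated values were below all controls, but the log2 fold change of −0.14 had an interval from −0.30 to 0.01 (edgeR adjusted p = 0.123). It was called lower with total counts only (−0.21, edgeR adjusted p = 0.0240) and higher under geometric mean neuron marker scaling (0.18, edgeR adjusted p = 0.0419), still below the shifted median of all genes. Gclc, the catalytic subunit of the same enzyme, had a log2 fold change of 0.01 with an interval from −0.13 to 0.16.

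Thioredoxin pathway members split. Txnrd1 (ENSMUSG00000020250.10, chromosome 10, 82833951 to 82897712, plus strand), the cytosolic thioredoxin reductase, rose slightly, from 78.7, 77.4 and 77.8 CPM in labelled control to 89.9, 89.4 and 96.6 CPM in labelled activated replicates. The controls lay within 2 CPM of each other, and the groups are apart. The log2 fold change of 0.24 ± 0.06 (SE) passed edgeR's test (adjusted p = 0.00679). Srxn1 (ENSMUSG00000032802.8, chromosome 2, 152105516 to 152111376, plus strand), which reactivates overoxidised peroxiredoxins, stood at 57.1, 59.8 and 53.0 CPM in labelled control and 57.4, 56.0 and 64.8 CPM in labelled activated replicates. These values overlap, with a log2 fold change of 0.07 and an interval from −0.08 to 0.23 (edgeR adjusted p = 0.455). It became higher only under geometric mean neuron marker scaling (0.40), where the median of all genes was 0.37.

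Nqo1 (ENSMUSG00000003849.8, chromosome 8, 107388225 to 107403206, minus strand), the quinone reductase often used as an NRF2 reporter, was scarce. It stood at 2.08, 1.74 and 1.95 CPM in labelled control and 3.63, 2.41 and 3.17 CPM in labelled activated replicates, from 41 to 101 reads per library. The groups do not overlap, and the log2 fold change of 0.65 ± 0.20 (SE) passed edgeR's test (adjusted p = 0.0198). The call was lost in 3 of the 6 fits that dropped a library: control replicate 2 (0.60), control replicate 3 (0.66) and activated replicate 1 (0.53). Counting error alone comes to 15.6% of the value in the library with fewest reads.

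Hmox1 (ENSMUSG00000005413.8, chromosome 8, 75093621 to 75100589, plus strand), the inducible heme oxygenase that yields iron, carbon monoxide and biliverdin, rose from 26.2, 26.4 and 21.8 CPM in labelled control to 30.8, 29.9 and 42.6 CPM in labelled activated replicates. Labelled activated replicate 3 stood well above the other two of its group. The log2 fold change of 0.49 ± 0.12 (SE) passed edgeR's test (adjusted p = 0.00707). With that library left out it was 0.29 and still passed (edgeR adjusted p = 0.0161).

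The windows of a gene that rose, its called target Txnrd1 and the uncalled target Srxn1 are shown for comparison of their motif content.
Nfe2l2, chr2:75704614-75704913, minus strand: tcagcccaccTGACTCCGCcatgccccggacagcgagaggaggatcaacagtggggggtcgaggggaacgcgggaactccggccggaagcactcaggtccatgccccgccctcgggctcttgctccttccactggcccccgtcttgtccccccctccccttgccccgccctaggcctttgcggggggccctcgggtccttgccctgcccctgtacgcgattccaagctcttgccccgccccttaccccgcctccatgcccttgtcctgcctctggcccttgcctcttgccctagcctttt
Txnrd1 window 2, chr10:82858956-82859255, plus strand: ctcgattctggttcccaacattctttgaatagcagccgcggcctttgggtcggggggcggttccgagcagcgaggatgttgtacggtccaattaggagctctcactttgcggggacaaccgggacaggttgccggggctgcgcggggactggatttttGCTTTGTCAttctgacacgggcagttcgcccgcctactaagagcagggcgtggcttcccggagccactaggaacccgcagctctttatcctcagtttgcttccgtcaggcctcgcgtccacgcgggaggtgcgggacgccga
Srxn1, chr2:152105274-152105573, plus strand: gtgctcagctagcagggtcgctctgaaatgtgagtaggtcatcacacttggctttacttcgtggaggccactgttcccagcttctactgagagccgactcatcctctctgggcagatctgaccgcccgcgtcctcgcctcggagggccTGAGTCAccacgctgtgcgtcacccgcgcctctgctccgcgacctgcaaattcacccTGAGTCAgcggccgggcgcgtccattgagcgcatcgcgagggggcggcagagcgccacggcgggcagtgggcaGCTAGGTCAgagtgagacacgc
Capitals mark the antioxidant core at −240 in Nfe2l2. On the strand opposite to the printed one, the core stands at −92 in Txnrd1 window 2 and 29 after the start in Srxn1. Srxn1 also holds AP-1 sites at −102 and −45, the only ones in the 13 windows. The site at −45 is followed by GC, but its letters TGAGTCAGC do not match the searched core TGACNNNGC. The antioxidant core was found in 7 of the 13 windows, of 7 genes, and in 12.4% of all windows. Nqo1 and Slc7a11, which rose, hold none of the 4 motifs in their windows. The called Nfe2l2 and Txnrd1, the uncalled Mafg, Mafk, Srxn1 and Gclm, and Maff hold the antioxidant core. Hmox1, which also rose, is the gene for which no window was found. Sequence outside the windows was not searched, so an element further from the start would have been missed. Whether genes that rose lack the element was therefore not tested. AP-1 sites stand in 7.81% and MAF cores in 19.5% of all windows, the latter among these genes in Mafk alone.

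Ordered by level per kb of exon, Srxn1 was highest in labelled control libraries at 20.1 ± 1.21 CPM per kb (SD, n = 3). It was followed by Hmox1 (14.2 ± 1.5) and Mafg (14.1 ± 0.399), which overlap, then Txnrd1 (11 ± 0.0992) and Gclm (5.48 ± 0.0907). Nfe2l2 (3.54 ± 0.621), Maff (3.50 ± 0.273) and Mafk (3.24 ± 0.174) formed a run of overlapping neighbours, and Nqo1 (1.24 ± 0.113) and Slc7a11 (0.926 ± 0.123) came last. In labelled activated libraries Maff (6.88 ± 1.73 CPM per kb) and Nfe2l2 (5.94 ± 0.620) stood above Gclm (4.96 ± 0.332), and Hmox1 (19.7 ± 4.05) overlapped Srxn1 (21.1 ± 1.68). Lengths cover every annotated exon, 13922 bases for Slc7a11, and how many of these exons are used was not measured.

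Partners and regulators of NRF2 mostly went the other way from Nfe2l2. Of 13 tested genes (15 listed: CNC and BACH factors, large MAFs and the KEAP1 complex), 8 were lower (61.5%, beside 20.6% of all genes) and 1 higher (7.69%, beside 16.2%; edgeR, median log2 fold change −0.36). The large MAFs, activating factors with roles in cell fate, include Maf and Mafa, which fell by 0.57 and 1.12 on the log2 scale. Mafa, Cul3 and Nfe2l3 are named here after their values were seen. Keap1, the sensor that binds NRF2, had a log2 fold change of −0.23 (edgeR adjusted p = 0.0198), Cul3, the ligase scaffold, −0.36, Rbx1, its RING subunit, −0.48, and Sqstm1, the autophagy receptor that sequesters KEAP1, −0.49. Bach1, the heme-sensitive repressor of Hmox1, fell by 0.37 on the log2 scale (edgeR adjusted p = 0.00165). Nfe2l1, the CNC factor of proteasome genes, did not pass (0.04), and Nfe2l3 was the member that rose (0.91, from 1.51 to 2.86 CPM), by 0.46 in unstranded counts. The Keap1 call ended when control replicate 2 (−0.16) or activated replicate 2 (−0.21) was dropped, and with summed neuron marker scaling (−0.10). Geometric mean neuron marker scaling turned Keap1 to 0.10 and ended the calls of Cul3, Rbx1 and Bach1 (−0.04, −0.15 and −0.04).

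Of 27 other glutathione genes tested (29 listed), 7 were higher, 7 lower and 13 did not pass, around a median of 0.06. Both directions came to 25.9%, beside 16.2% higher and 20.6% lower of all genes. Gstm1, a glutathione transferase, rose from 89.7 ± 7.90 to 150 ± 15.7 CPM (SD, n = 3; log2 fold change 0.74), and the microsomal transferase gene Mgst1 (0.73) and the secreted peroxidase gene Gpx3 (0.71) rose too. Glrx, glutaredoxin, fell by 0.46 on the log2 scale, a call that ended under geometric mean neuron marker scaling (−0.13). Of 21 genes for thioredoxins, peroxiredoxins and other scavengers, 9 were lower (42.9%), 2 higher (9.52%) and 10 did not pass (median −0.18). The mitochondrial enzymes superoxide dismutase, Sod2, and peroxiredoxin, Prdx3, fell by 0.53 and 0.51 on the log2 scale, the cytosolic Prdx2 by 0.58, and the sestrin gene Sesn3 by 0.41. Txn1, the thioredoxin that TXNRD1 reduces and named after its value was seen, fell by 0.39. Sesn3 and Txn1 had no call under geometric mean neuron marker scaling (−0.08 and −0.06).

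Of 15 tested genes of NADPH supply and detoxification (17 listed), 3 were higher and 3 lower (20% each, median 0.07). The epoxide hydrolase gene Ephx1 (0.64) and the retinal dehydrogenase gene Aldh1a1 (0.73) rose. The carbonyl reductase gene Cbr1 (−0.54) and Idh1, a cytosolic NADPH source (−0.37), fell, with no call under geometric mean neuron marker scaling (−0.21 and −0.04). Of 12 heme and iron genes, 2 were higher (16.7%) and 1 lower (8.33%, median 0.12). Hmox2, the constitutive heme oxygenase, fell from 30.7 ± 3.43 to 18.7 ± 0.829 CPM (log2 fold change −0.71), the opposite direction to Hmox1. The ferritin heavy chain gene Fth1 rose (0.26), and the light chain gene Ftl1 (0.17) was called here but not under 10 of 14 alternatives. Pir, an iron-binding nuclear protein gene, had a value of 0.68 and did not pass (edgeR adjusted p = 0.0503). Over all 88 tested genes of the 5 lists (94 listed), 15 were higher (17.0%, beside 16.2% of all genes) and 28 lower (31.8%, beside 20.6%).

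**Figure D5:**
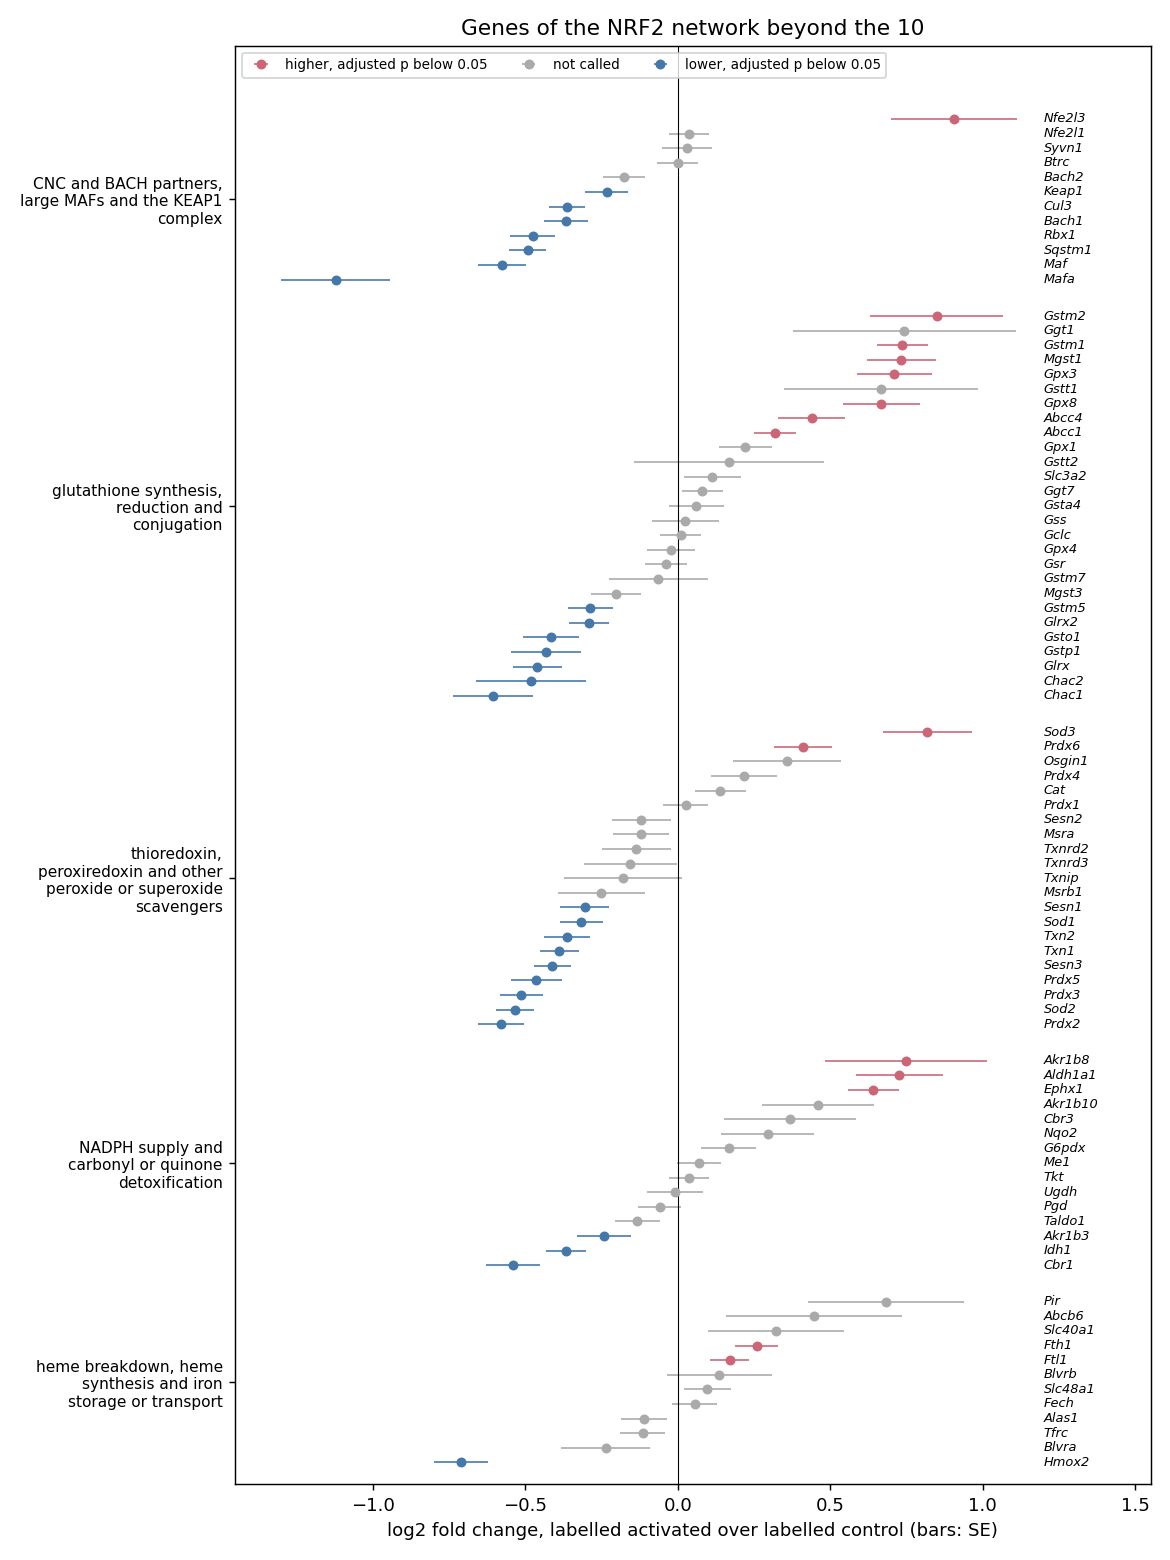
Log2 fold change (labelled activated over labelled control) with SE for the tested genes of the 5 lists that are reported here, 1 gene per line in order of value within its list, with symbols at the right. Red is higher and blue lower at adjusted p below 0.05, and grey is not called. The thioredoxin list has 9 lower and 2 higher genes, and the glutathione list 7 of each.

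Among the 5 genes most like Maff over the 6 libraries, by the root mean square difference of log2 CPM centred on each gene's mean among 15313 candidates, were Phldb2, a microtubule anchoring protein gene (0.08), F3, tissue factor (0.11), Bgn, the matrix proteoglycan biglycan (0.11), and S1pr1, a sphingosine phosphate receptor gene (0.12). F3, for example, stood at 26.4, 24.1 and 21.9 CPM in labelled control and 34.0, 39.9 and 51.5 CPM in labelled activated replicates. Those most like Nfe2l2 were Cnn2, a calponin (0.05), Pdpn, podoplanin (0.05), Lgals3bp, a galectin ligand (0.05), Cers2, a ceramide synthase (0.06), and Lbp, a lipopolysaccharide binding protein (0.06). Each was picked for its likeness, so these values describe and do not test.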

How the data were processed

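The 6 samples were sequenced as paired 150 bp reads from strand-specific libraries depleted of ribosomal RNA, per the labels' protocols. The submitters' processing notes name STAR 2.5.2b, the mm10 genome and edgeR. The deposited files hold raw counts per gene, unstranded and by strand. Parameters and annotation release are not given in the sources used here.

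Reverse-strand counts were used, since 4.05% to 4.29% of gene reads lay on the other strand. The 4 lines that name no gene were left out. Reads assigned to no gene on the counted strand were 25.1% to 37.3% of all, unmapped 7.49% to 9.88%, multimapping 5.18% to 6.35% and ambiguous 0.736% to 0.977%. Names, positions and exon lengths came from GENCODE M21, which held 55144 of 55385 identifiers. Genes passed filterByExpr (minimum count 10, total 15), were scaled by TMM and tested in edgeR 4.0.16 under R 4.3.3 by quasi-likelihood (common biological coefficient of variation 0.0762), with Benjamini-Hochberg adjustment over all genes and a threshold of 0.05. Each SE was derived from the log2 fold change and its F statistic. Log2 CPM for likeness had 2 counts added. Counting depth limits precision most for Nqo1.

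Members and lists were chosen with earlier results of these data known. Named genes are the 10 members, Keap1, Bach1, Nfe2l1, Gclc, the 4 smallest p of each list, the 5 genes most like Maff and like Nfe2l2 (mean log2 CPM of at least 0), and 4 activity genes. Tried as alternatives were 2 neuron marker scalings, total counts, size factors and the Wald test of DESeq2 1.42.0, no filter, unstranded counts, a replicate block and each library left out. The geometric mean scaling was chosen after seeing the data. The procedure was also run on simulated data, and the outcome is not given here. Protein sequences were not used here, and some genes that the rule names are not reported here. Plots used matplotlib 3.10.9.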

Additional observations from a re-analysis of the deposited data

How the results depend on the processing

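Of 140 values of the 10 genes under alternatives, 125 kept their direction and their side of the threshold (for Maff, which has no test, stayed within the replicate spread). Unstranded counts moved Slc7a11 from 0.79 to 0.05 and ended its call. Counts of calls moved with scaling. Summed neuron marker scaling gave 5035 higher and 1992 lower genes of all tested and 26 higher genes of the 5 lists. Geometric mean neuron marker scaling gave 9272 higher and 565 lower genes of all tested, 8 of the 9 genes other than Maff higher, 49 higher and 8 lower genes of the lists, and 1.32 for Maff. Total counts only made 1 of the 9 lower, and the share of lower genes among all called went from 55.9% to 68.7%, or to 28.3% and 5.74% under the summed and geometric mean neuron marker scalings. Signs turned for Mafg (0.11 and 0.31) and Mafk (0.0557 and 0.26) under summed and geometric mean neuron marker scaling, and for Gclm (0.18) and Keap1 (0.10) under the latter. The uncalled Nfe2l1 turned with total counts (−0.0326), and Gclc with total counts (−0.0563), no filter (−0.00873) and unstranded counts (−0.0200). With each library left out in turn, Mafg ranged from −0.0359 to 0.0216, Mafk from −0.139 to 0.0166, Nfe2l1 from −0.0193 to 0.0917 and Gclc from −0.0348 to 0.0538. Other than by the scalings' construction, the cause was not tested.

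With each library left out in turn, 4 to 5 of the 9 genes were higher and 0 lower, 13 to 16 list genes were higher and 24 to 31 lower, and 1975 to 3304 of all genes were higher and 2846 to 3908 lower. Same-numbered libraries did not deviate together (correlations across genes of −0.00436, −0.170 and −0.201, beside −0.0576 to 0.206 for differently numbered ones). With 3 libraries per group, each set against its own group mean, these values cannot show whether the numbers pair them. With the replicate block, 2173 genes were higher and 3105 lower, 5 of the 9 genes were higher and 0 lower, and 13 list genes were higher and 25 lower, with the calls of Keap1 (−0.23, edgeR adjusted p = 0.0526) and Ftl1 (0.17, edgeR adjusted p = 0.108) lost. Nqo1, with 41 to 101 reads per library, is the gene limited by depth.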
